A study of Caenorhabditis elegans with 12 samples.

Results

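Complex III of the respiratory chain (ubiquinol:cytochrome c oxidoreductase) was followed at the transcript level through 8 of its subunit genes in whole Caenorhabditis elegans. The 8 genes are isp-1, cyc-1, ucr-1, ucr-2.1, ucr-2.2, ucr-2.3, ucr-11 and ctb-1. They were chosen by name, by matching the gene identifiers of the deposited matrix to the WBcel235 annotation, and they are 8 of the 14326 genes in the matrix. All 8 passed the filter on low values in every genotype, so none was lost.

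The animals compared were double mutants of isp-1;sod-3, double mutants of isp-1;sod-5, the single mutant isp-1 and the wild type (WT), with 3 messenger RNA libraries each. The double mutants are called the sod-3 and the sod-5 double mutant after here. All 3 mutant groups carry the isp-1 mutation, and the labels name no allele for any gene. Animals were raised at 20 °C on OP50 bacteria and collected whole as prefertile young adults. By the design text each library combined RNA of 3 isolates out of 9 biological replicates per genotype, whereas the pooling label says none, so the spread between libraries may be partly technical. Levels are CPM, each gene's reads scaled to a common library total, and libraries held 5438798 to 155071752 reads.

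As background, complex III takes electrons from ubiquinol and hands them to cytochrome c while protons cross the inner mitochondrial membrane. The electron path runs through cytochrome b, which is encoded by mitochondrial DNA (ctb-1), and through the Rieske iron-sulphur protein (isp-1) and cytochrome c1 (cyc-1). The core proteins (ucr-1 for core protein 1, the 3 ucr-2 genes for core protein 2) form the part of the complex that faces the matrix. In this worm, impaired isp-1 is a widely used model of long life with slow respiration, and the study asked what loss of a superoxide dismutase gene (sod-3 or sod-5) changes in it.

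The mutated gene was present in every library. The isp-1 transcript stood at 362, 323 and 395 CPM in the sod-3 double mutant and at 361, 373 and 451 CPM in the sod-5 double mutant. It was at 332, 336 and 348 CPM in isp-1, against 306, 273 and 306 CPM in WT. Every library with the isp-1 mutation was above every WT library. The level therefore does not check the isp-1 label, since a mutation that leaves the transcript in place would not show here. The sod-3 transcript was at 0.148, 1.47 and 1.74 CPM in the sod-3 double mutant, against 20.0, 18.6 and 20.7 CPM in isp-1, with no overlap. The sod-5 transcript had 2, 0 and 7 reads in the sod-5 double mutant, against 10, 6 and 1 reads in isp-1. These counts overlap and are too low to check the sod-5 label.

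Several features of the libraries touch the results that follow. Replicate 3 of the sod-5 double mutant held the highest value of 4 of the 7 nuclear members, and replicate 2 of the sod-3 double mutant was the lowest of its group for 6 of 7. In that sod-5 library the ribosomal RNA gene rrn-3.1 took 0.337% of reads, against 1.81% to 7.12% in the others. That sod-3 library had the lowest sum of the 10 cuticle collagen genes (1255 CPM, against 1687 to 2930 CPM elsewhere) and of the 40 measured sperm genes (324 CPM, against 445 to 1294 CPM). Markers of several tissues also moved with genotype. Of the sperm genes, 29 of 39 tested were called lower and 0 higher in isp-1 than in WT, with a median log2 difference of -1.24 and sums of 445 to 586 CPM in isp-1 against 1106 to 1294 CPM in WT. Of the 10 collagens, 2 were called lower and 8 lay wholly below WT in isp-1, with a median log2 difference of -1.60 and sums of 1736 to 1999 CPM in isp-1 against 2204 to 2241 CPM in WT. The collagen col-19 went the other way, at 1490 to 1653 CPM in isp-1 against 1213 to 1292 CPM in WT, without being called. Most of these sums came from col-19. Of 10 body wall muscle genes 0 were called and 6 lay wholly below WT (median log2 -0.24), and of 8 intestine genes 2 were called lower (cpr-1 and asp-1) and 1 higher (ges-1). Over all 14013 genes tested in isp-1 against WT, 1453 were called lower, 1345 were called higher and 3600 lay wholly below WT. In the sod-3 and sod-5 double mutants against WT, 5 and 11 of 39 sperm genes were called lower and 0 higher (median log2 -0.81 and -0.84). Of the 10 collagens 1 was called lower in each and 0 higher (median log2 -0.70 and -1.03). Of the 8 intestine genes 1 was called lower in each, with 2 and 1 higher. Over all genes 921 and 1430 were called lower there. The part of these tissue markers in the results was not tested, and the counts of members called without the libraries that stood apart, and with rrn-3.1 out of the totals, are given with the main counts. In whole worms, fewer cells of a type and less RNA per cell cannot be told apart. The whole-worm label held, with body wall muscle, intestine, neuron and germline markers all detected in each library.

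**Figure D1:**
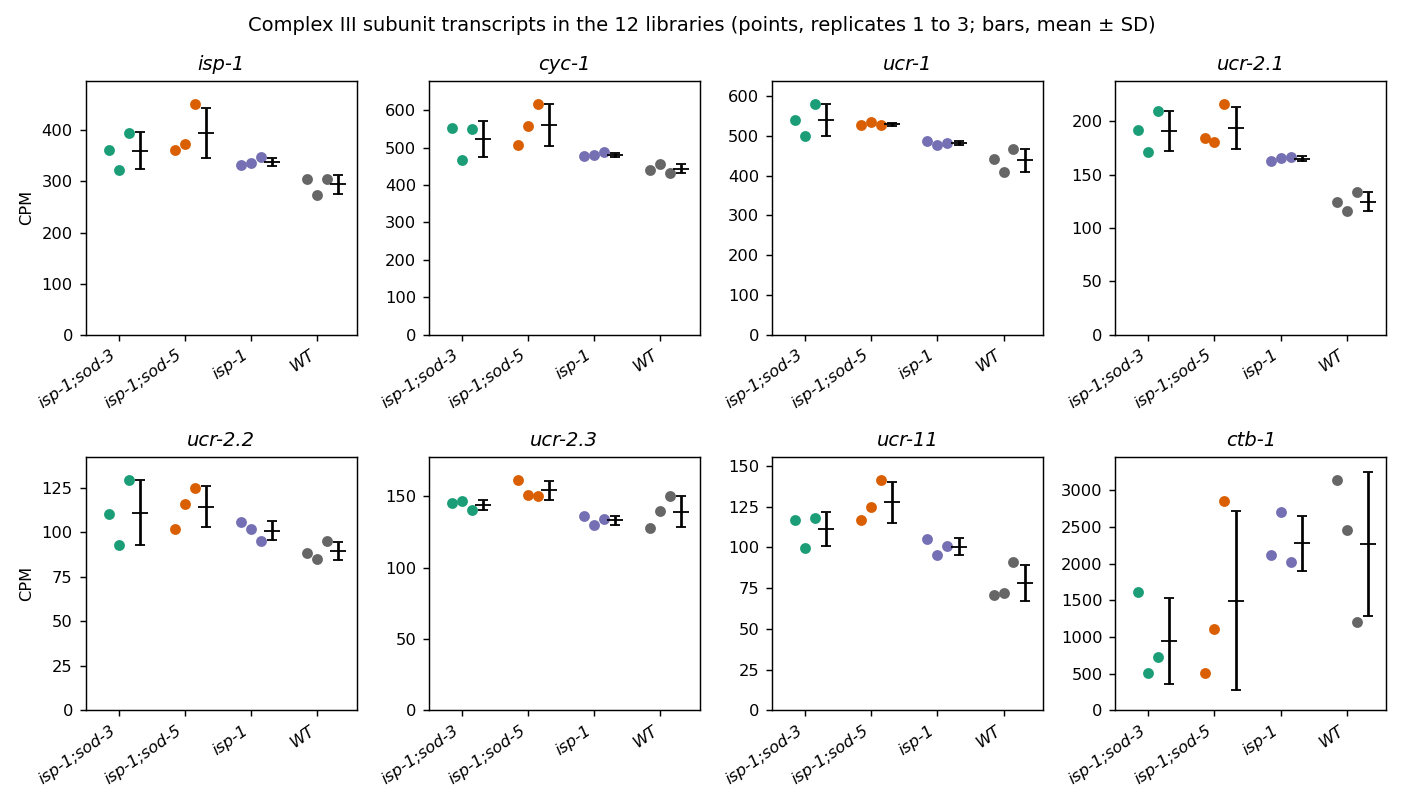
CPM of the 8 complex III transcripts in every library, with groups from left to right the sod-3 double mutant, the sod-5 double mutant, isp-1 and WT; points are replicates 1 to 3 and bars the mean ± SD (n = 3). For isp-1 the 9 libraries with the isp-1 mutation lie between 323 and 451 CPM, above the 3 WT libraries at 273 to 306 CPM, whereas ctb-1 spans 514 to 3139.5 CPM with groups that overlap.

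In isp-1 against WT, 2 of the 8 complex III genes passed the test, both nuclear and both higher. The core protein 2 gene ucr-2.1 rose 1.32-fold and the small subunit gene ucr-11 rose 1.29-fold, while the other 4 nuclear genes with no overlap between groups, isp-1, cyc-1, ucr-1 and ucr-2.2, differed by 1.08-fold to 1.15-fold and did not pass. Differences were tested with limma on log2(CPM + 0.5), and the threshold for a call was 0.05 on the p adjusted by Benjamini-Hochberg over all 14013 genes tested. In this comparison 20.0% of all genes tested were called, 9.60% as higher, and a count of 2 of 8 is near the share called in either direction. All 3 libraries were above all WT libraries for 6 of the 8 members, against 26.0% of all genes. Statements on overlap of libraries throughout use CPM without further scaling and were not repeated with other scalings. The median difference of the 8 members was 0.16 on the log2 scale, beside 0.01 over all genes.

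The ucr-2.1 gene (chromosome X, 12018429 to 12021206 in WBcel235) encodes one of 3 core protein 2 paralogs. It was at 192, 172 and 209 CPM in the sod-3 double mutant and at 184, 180.4 and 216 CPM in the sod-5 double mutant. In isp-1 it was at 163, 166 and 166 CPM, against 124, 116 and 134 CPM in WT. The groups with the isp-1 mutation did not overlap WT, and both double mutants were also above isp-1 in every library. Against WT the difference was log2 0.61 in the sod-3 double mutant (SE 0.10, adjusted p = 0.00133, limma). It was log2 0.63 in the sod-5 double mutant (SE 0.10, adjusted p = 0.000975) and 0.40 in isp-1 (SE 0.10, adjusted p = 0.0168). The call in isp-1 was lost when WT replicate 1 or 2, or isp-1 replicate 1 or 3, was left out, with adjusted p from 0.0561 to 0.0800 in limma. The calls in both double mutants were kept under every alternative.

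The ucr-11 gene (chromosome I, 6552834 to 6553379), by its name a small subunit, had the largest fitted rise of the members in the sod-5 double mutant. It was at 117, 99.5 and 118 CPM in the sod-3 double mutant and at 117, 125 and 141 CPM in the sod-5 double mutant, with 105, 95.1 and 101 CPM in isp-1, against 71.1, 72.2 and 91.2 CPM in WT. No library of a mutant group fell below 95.1 CPM, and no WT library rose above 91.2 CPM. The difference from WT was log2 0.52 in the sod-3 double mutant (SE 0.12, adjusted p = 0.00921, limma), 0.71 in the sod-5 double mutant (adjusted p = 0.00103) and 0.37 in isp-1 (adjusted p = 0.0411). In isp-1 the call was lost without 1 of 6 libraries (WT 1 or 2, any isp-1 library, or sod-3 double mutant 1), with adjusted p from 0.0544 to 0.158, and with median centring. In the sod-3 double mutant it was lost without WT replicate 1 or 2 (adjusted p = 0.0513 and 0.0527).

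Among the redox subunits, the isp-1 gene (chromosome IV, 8134016 to 8136055), whose levels are given above, differed from WT by log2 0.28 in the sod-3 double mutant (SE 0.11, adjusted p = 0.0884, limma), by 0.42 in the sod-5 double mutant (adjusted p = 0.0154) and by 0.20 in isp-1 (adjusted p = 0.221). Only the sod-5 double mutant passed, and without WT replicate 2 it did not (adjusted p = 0.0757). Without sod-5 double mutant replicate 3 the sod-3 double mutant passed as well (adjusted p = 0.0273). The cyc-1 gene (chromosome I, 8022674 to 8024422) was at 553, 468 and 549 CPM in the sod-3 double mutant and at 506, 558 and 616 CPM in the sod-5 double mutant. It was at 476, 479 and 488 CPM in isp-1, against 441, 456 and 433 CPM in WT. Every mutant library again exceeded every WT library. Its difference from WT was log2 0.23 in the sod-3 double mutant (SE 0.10, adjusted p = 0.122), 0.33 in the sod-5 double mutant (adjusted p = 0.0292) and 0.12 in isp-1 (adjusted p = 0.454). The call in the sod-5 double mutant was lost without any 1 WT library or without sod-5 double mutant replicate 2, with adjusted p from 0.0563 to 0.0825, and the sod-3 double mutant passed without sod-5 double mutant replicate 3 (adjusted p = 0.0458). The ratio of isp-1 to cyc-1, in CPM per kilobase of exon, was 1.02 ± 0.0496 in the sod-3 double mutant, 1.04 ± 0.0484 in the sod-5 double mutant and 1.04 ± 0.0129 in isp-1, against 0.982 ± 0.0850 in WT (SD, n = 3 each). These ratios overlapped between all groups.

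The core protein 1 gene ucr-1 (chromosome III, 5592135 to 5594401) was at 541, 499 and 580.2 CPM in the sod-3 double mutant and at 528, 534 and 527 CPM in the sod-5 double mutant. It was at 487, 478 and 481 CPM in isp-1, against 441, 409 and 467 CPM in WT. In CPM without further scaling the 4 groups formed steps, with WT below isp-1 and isp-1 below both double mutants in every library. This order was not examined after scaling with TMM factors. Those factors were 0.952 in WT replicate 3 and 1.15 in sod-5 double mutant replicate 3, so the steps may depend on the scaling. The difference from WT was log2 0.30 in the sod-3 double mutant (SE 0.09, adjusted p = 0.0379, limma), 0.27 in the sod-5 double mutant (adjusted p = 0.0425) and 0.14 in isp-1 (adjusted p = 0.319). Both calls lay near the threshold, and leaving out an isp-1 library ended them with the log2 differences unchanged. The call in the sod-3 double mutant was lost without any of 7 libraries (WT 1 or 2, any isp-1 library, sod-3 double mutant 1 or 3), with adjusted p from 0.0572 to 0.165. The call in the sod-5 double mutant was lost without any of 8 (WT 1 or 2, any isp-1 library, sod-3 double mutant 1, sod-5 double mutant 1 or 2), with adjusted p from 0.0623 to 0.177. Scaling with TMM factors also ended both calls.

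The ucr-2.2 gene (chromosome X, 15173904 to 15178145), a second core protein 2 paralog, was at 110.5, 92.8 and 129 CPM in the sod-3 double mutant and at 102, 116 and 125 CPM in the sod-5 double mutant. It was at 106, 102 and 95.2 CPM in isp-1, against 88.3, 84.9 and 95 CPM in WT. Replicate 2 of the sod-3 double mutant lay among the WT libraries, and the others were above them. Against WT the difference was log2 0.30 in the sod-3 double mutant (SE 0.12, adjusted p = 0.101, limma), 0.35 in the sod-5 double mutant (adjusted p = 0.0487) and 0.17 in isp-1 (adjusted p = 0.346). The call in the sod-5 double mutant was lost without any 1 of 9 libraries, the exceptions being sod-3 double mutant 2 or 3 and sod-5 double mutant 1, with adjusted p from 0.0650 to 0.154. Without sod-3 double mutant replicate 2 the sod-3 double mutant passed (adjusted p = 0.0324).

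The remaining paralog, ucr-2.3 (chromosome III, 879860 to 881458), was the one nuclear member called in no comparison. It was at 145, 146 and 140.1 CPM in the sod-3 double mutant and at 161, 151 and 149.8 CPM in the sod-5 double mutant, with 136, 129.7 and 134 CPM in isp-1, against 128, 139.5 and 149.9 CPM in WT. The isp-1 values lay within the WT range. Against WT the 95% confidence intervals of the log2 difference ran from -0.13 to 0.23 in the sod-3 double mutant, from -0.03 to 0.33 in the sod-5 double mutant and from -0.24 to 0.12 in isp-1.

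**Figure D2:**
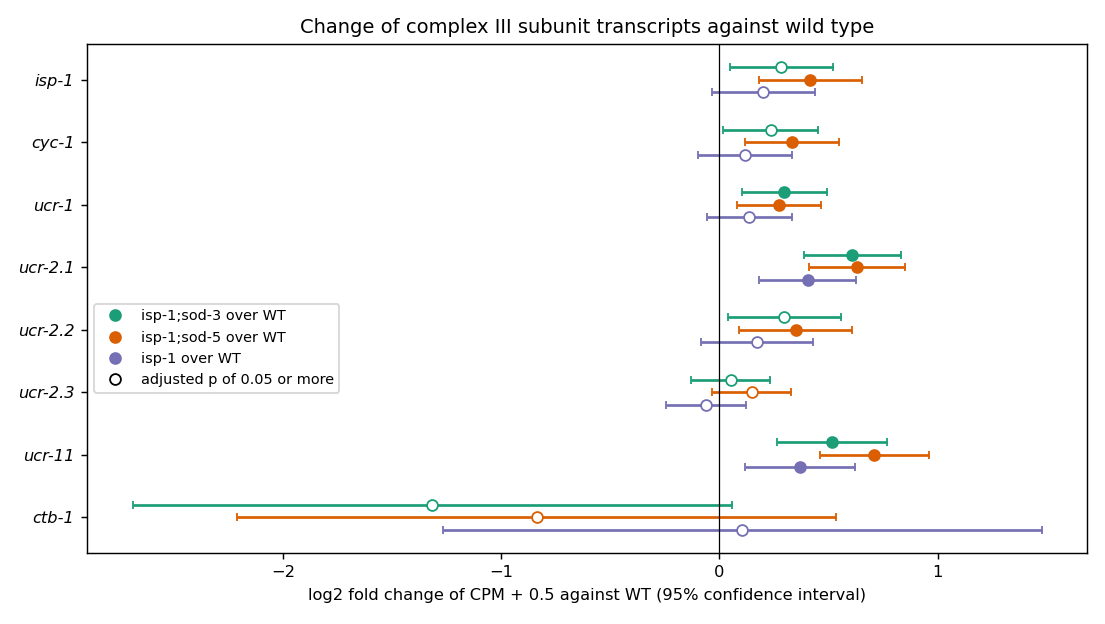
Log2 fold change of CPM + 0.5 against WT for each member, with 95% confidence intervals from limma; colours mark the sod-3 double mutant, sod-5 double mutant and isp-1 contrasts, which share the 3 WT libraries, and filled points have an adjusted p below 0.05. The ucr-2.1 and ucr-11 points are filled in all 3 contrasts, ucr-2.3 in none, and the ctb-1 intervals are the widest.

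Counted over the members, 3 of 8 rose in the sod-3 double mutant against WT (ucr-1, ucr-2.1 and ucr-11), 0 fell, and 10.4% of all genes were called as higher there (17.0% in either direction). All libraries lay above all WT libraries for 5 of 8, beside 22.0% of all genes. In the sod-5 double mutant 6 of 8 rose against WT (isp-1, cyc-1, ucr-1, ucr-2.1, ucr-2.2 and ucr-11) and 0 fell, beside 14.1% of all genes called as higher (24.3% in either direction). All libraries lay above all WT libraries for 6 of 8, beside 23.7% of all genes. With TMM factors, median-ratio factors, median centring or edgeR, 3 of 8 were called in the sod-5 double mutant, namely isp-1, ucr-2.1 and ucr-11. The same settings called 2 of 8 in the sod-3 double mutant, ucr-2.1 and ucr-11. Without both sod-3 double mutant 2 and sod-5 double mutant 3, a setting chosen after seeing the data, 6 members were called in the sod-3 double mutant (isp-1, cyc-1 and ucr-2.2 being added), 6 in the sod-5 double mutant and 3 in isp-1 (isp-1 being added). With rrn-3.1 left out of the totals the counts were 4 (isp-1 being added), 6 and 2. The scaling also moved the direction of calls over all genes. The share of calls that were higher was 61.3% in the sod-3 double mutant against WT, and 51.3%, 51.0% and 44.7% with TMM, median-ratio factors and median centring. The same share was 58.0% in the sod-5 double mutant against WT, and 44.5%, 47.8% and 43.1% with those scalings. The median log2 difference of the members from WT was 0.29 in the sod-3 and 0.34 in the sod-5 double mutant, beside 0.01 and 0.04 over all genes. The 3 comparisons with WT share their WT libraries, and their values stand side by side without a test between them.

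Set against isp-1 itself, neither double mutant changed a complex III transcript past the threshold. In the sod-3 double mutant 0 of 8 members were called by limma, edgeR or DESeq2, and 1 of 8, ctb-1, had an unadjusted p below 0.05. Over all genes 1.08% were called. The ucr-1, ucr-2.1 and ucr-2.3 libraries lay above all isp-1 libraries, with log2 differences of 0.16, 0.20 and 0.11 (adjusted p = 0.690, 0.628 and 0.778), beside 8.79% of all genes without overlap in that direction. The ctb-1 libraries lay below all isp-1 libraries, beside 6.77% of all genes. In the sod-5 double mutant 0 of 8 were called by the same tools, and 3 of 8 (ucr-2.1, ucr-2.3 and ucr-11) had an unadjusted p below 0.05, while 1.21% of all genes were called. Of the calls over all genes there, 53.3% were higher, and 42.4% with TMM factors. Values of 6 members lay above all isp-1 libraries (isp-1, cyc-1, ucr-1, ucr-2.1, ucr-2.3 and ucr-11), beside 11.0% of all genes. Among these ucr-11 differed most, by log2 0.34 (SE 0.12, 95% confidence interval 0.09 to 0.59, adjusted p = 0.246). For the other 6 nuclear members the differences were log2 0.14 to 0.23.

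The double mutants were compared with each other to test whether their changes against isp-1 differed. None of the 8 members was called by limma, edgeR or DESeq2, and 0 had an unadjusted p below 0.05, beside 0.107% of all genes called. The log2 difference of the sod-3 from the sod-5 double mutant was -0.13 for isp-1 (95% confidence interval -0.37 to 0.10), -0.19 for ucr-11 (-0.45 to 0.06) and 0.03 for ucr-1 (-0.17 to 0.22). The ucr-2.3 libraries of the sod-3 double mutant were all below those of the sod-5 double mutant (log2 -0.10, adjusted p = 0.920), beside 3.27% of all genes.

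The core protein 2 paralogs differed in their proportions between the mutants and WT. Per kilobase of exon, ucr-2.1 made up 42.1%, 40.9% and 43.0% of the sum of the 3 ucr-2 genes in the sod-3 double mutant and 40.3%, 39.6% and 43.3% in the sod-5 double mutant. It made up 39.5%, 41.1% and 41.3% in isp-1, against 35.8%, 33.3% and 34.6% in WT. The ucr-2.3 share was 33.8 ± 3.26% in the sod-3 double mutant, 34.8 ± 2.83% in the sod-5 double mutant and 34.7 ± 0.649% in isp-1, against 40.8 ± 1.74% in WT (SD, n = 3 each). Neither share overlapped between WT and any mutant group, and ucr-2.2 held 24.2%, 24.2%, 24.7% and 24.7% in the 4 groups in the same order. The 6 exact two-sided permutation tests of these 2 shares against WT each gave p = 0.1, the smallest p that 3 against 3 allows. These tests are not independent, since the shares are parts of the same sum and the comparisons share their WT libraries. The level of ucr-2.3 itself was called in no comparison. Per kilobase, ucr-2.1 stood above ucr-2.3 in all 9 mutant libraries and below it in the 3 WT libraries.

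The summed core protein 2 transcripts stood close to core protein 1. Their sum was 317 ± 23.6 CPM per kilobase in the sod-3 double mutant, 329 ± 17.4 in the sod-5 double mutant and 284 ± 3.22 in isp-1, against 252 ± 15.8 in WT. Core protein 1 (ucr-1) was at 315 ± 23.6, 309 ± 2.24, 281 ± 2.46 and 256 ± 17.2 CPM per kilobase in the same order (SD, n = 3 each). The ratio of the 2 lay between 0.945 and 1.13 over the 12 libraries, its highest value being in sod-5 double mutant replicate 3.

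**Figure D3:**
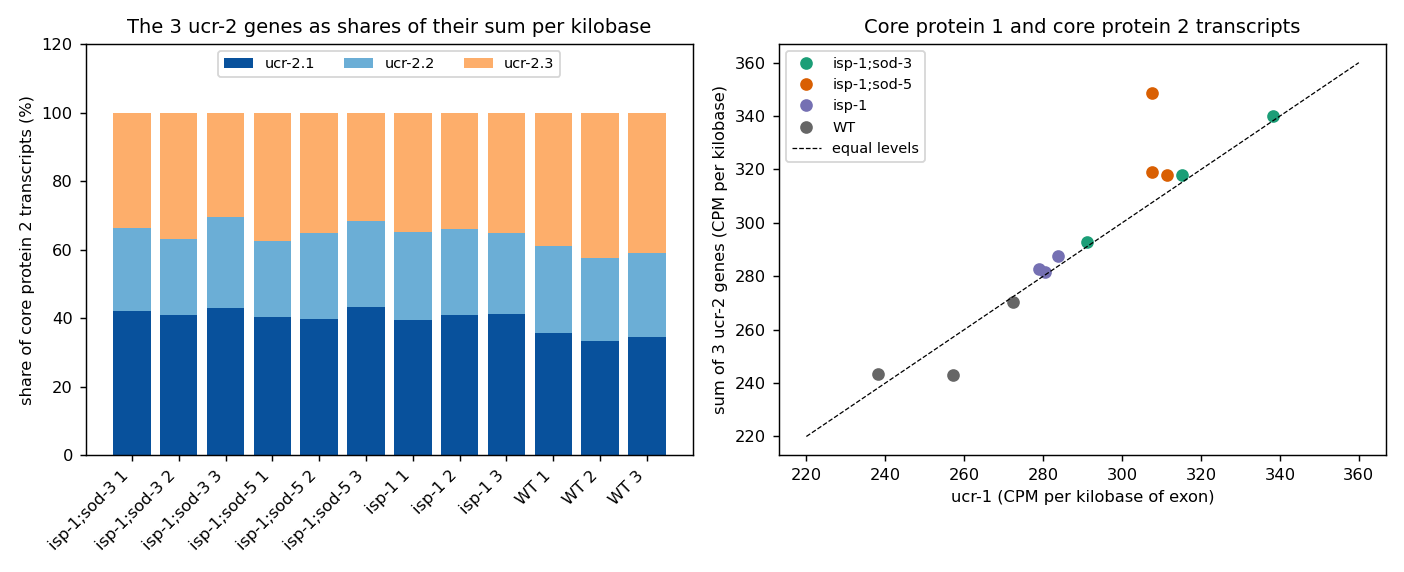
Left, ucr-2.1, ucr-2.2 and ucr-2.3 as percentages of their sum in CPM per kilobase, 1 bar per library in the order sod-3 double mutant, sod-5 double mutant, isp-1 and WT; right, the sum of the 3 ucr-2 genes against ucr-1, both in CPM per kilobase, 1 point per library, with a dashed line at equal levels. The ucr-2.1 band is at 39.5% to 43.3% in the mutants and at 33.3% to 35.8% in WT.

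In order of level per kilobase, ctb-1 came first in all 4 groups, at 849 ± 522 CPM per kilobase in the sod-3 double mutant, 1334 ± 1088 in the sod-5 double mutant and 2037 ± 333 in isp-1, against 2026 ± 880.1 in WT (SD, n = 3 each). In the sod-5 double mutant its libraries overlapped those of ucr-11, the next in order. In the mutants ucr-11, isp-1, cyc-1 and ucr-1 followed, with ucr-11 and isp-1 overlapping in each, then ucr-2.1, ucr-2.3 and ucr-2.2. In WT the order was cyc-1, isp-1, ucr-11 and ucr-1, whose neighbours overlapped throughout, then ucr-2.3, ucr-2.1 and ucr-2.2 without overlap. The last 3 places did not overlap in any group.

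Cytochrome b stood apart from the nuclear subunits by its spread. The ctb-1 gene (mitochondrial DNA, 4504 to 5621) was at 1612, 515 and 722 CPM in the sod-3 double mutant and at 514, 1107 and 2854 CPM in the sod-5 double mutant. It was at 2110.4, 2704 and 2017 CPM in isp-1, against 3139.5, 2457 and 1199.8 CPM in WT. The 3 sod-3 double mutant libraries were all below the isp-1 libraries, while the sod-5 double mutant and WT each ranged across most of the values. Its pooled SD within groups was 0.84 on the log2 scale, larger than for 99.6% of genes tested. The 7 nuclear members had SDs of 0.07 to 0.15, beside a median of 0.14 over genes that averaged 50 CPM or more. Over the 12 libraries ctb-1 varied 6.1-fold, whereas the sum of the 7 nuclear members varied 1.44-fold.

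No comparison called ctb-1. Against isp-1 its log2 difference was -1.42 in the sod-3 double mutant (SE 0.62, 95% confidence interval -2.79 to -0.05, adjusted p = 0.552, limma) and -0.94 in the sod-5 double mutant (adjusted p = 0.597). Leaving out 1 library moved the first value between -1.89 and -1.07, it was -1.07 without both sod-3 double mutant 2 and sod-5 double mutant 3, and the other settings gave -1.44 to -0.65. Against WT it was -1.32 in the sod-3 double mutant (adjusted p = 0.168), -0.84 in the sod-5 double mutant (adjusted p = 0.362) and 0.10 in isp-1 (95% confidence interval -1.27 to 1.48, adjusted p = 0.931). The last value turned negative without WT replicate 3 (-0.30) or isp-1 replicate 2 (-0.03).

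The other mitochondrially encoded genes also varied between libraries. Together the 12 protein genes took 0.855 ± 0.393% of reads in the sod-3 double mutant, 1.13 ± 0.639% in the sod-5 double mutant and 1.68 ± 0.326% in isp-1, against 1.4 ± 0.545% in WT (SD, n = 3 each). The 2 genes closest to ctb-1 in profile were ctc-2 and ctc-3, which encode subunits of complex IV in the same mitochondrial genome. Their root-mean-square differences from it were 0.18 and 0.21 on the log2 scale over the 12 libraries, each centred on its own mean, beside a spread of 0.90 for ctb-1 itself. Next came C01B12.9, W01A8.8 and far-5 at 0.27 to 0.30, with mean levels of 0.771, 2.89 and 5.41 CPM.

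Within this set the share of ctb-1 was lower in every isp-1 library than in WT. It made up 12.5%, 9.60% and 9.80% of the 12 genes in the sod-3 double mutant, 9.13%, 11.0% and 15.7% in the sod-5 double mutant and 14.5%, 13.1% and 13.1% in isp-1, against 16.9%, 15.9% and 15.1% in WT. The isp-1 and sod-3 double mutant libraries did not overlap WT, with exact two-sided permutation p = 0.1 each, the smallest possible, while the sod-5 double mutant overlapped WT (exact p = 0.2). These shares are parts of the same sum. In isp-1 the share of nduo-4 was also lower without overlap (3.73% to 3.91%, against 4.11% to 4.68% in WT). That of nduo-5 was higher (9.65% to 10.3%, against 6.16% to 8.25% in WT). Of the other 11 genes, 3 rose in isp-1, beside 9.60% of all genes called as higher. Complex I subunit genes nduo-6, ndfl-4 and nduo-5 rose 2.41-fold, 2.35-fold and 1.84-fold against WT (adjusted p = 0.00062, 0.0140 and 0.0231, limma), and the other 9, ctb-1 included, were not called.

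The nduo-6 transcript was at 75.7, 85.8 and 133 CPM in the sod-3 double mutant and at 136, 144 and 111 CPM in the sod-5 double mutant. It was at 122, 112 and 89.7 CPM in isp-1, against 45.9, 42.4 and 44.4 CPM in WT. Every mutant library was above every WT library, and the calls of nduo-6 against WT held under all 27 alternatives in each mutant group. The ndfl-4 gene, which adjoins nduo-6 in the mitochondrial genome, was also called in both double mutants against WT (log2 1.28 in the sod-3 and 1.77 in the sod-5 double mutant, adjusted p = 0.0108 and 0.00139). In isp-1 its call was lost without WT replicate 3 or isp-1 replicate 1, and that of nduo-5 was lost in 5 of 27 alternatives, WT 2 or 3 and isp-1 2 or 3 among them (adjusted p of up to 0.0600 and 0.0880). Against isp-1 none of the 12 was called in either double mutant.

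**Figure D4:**
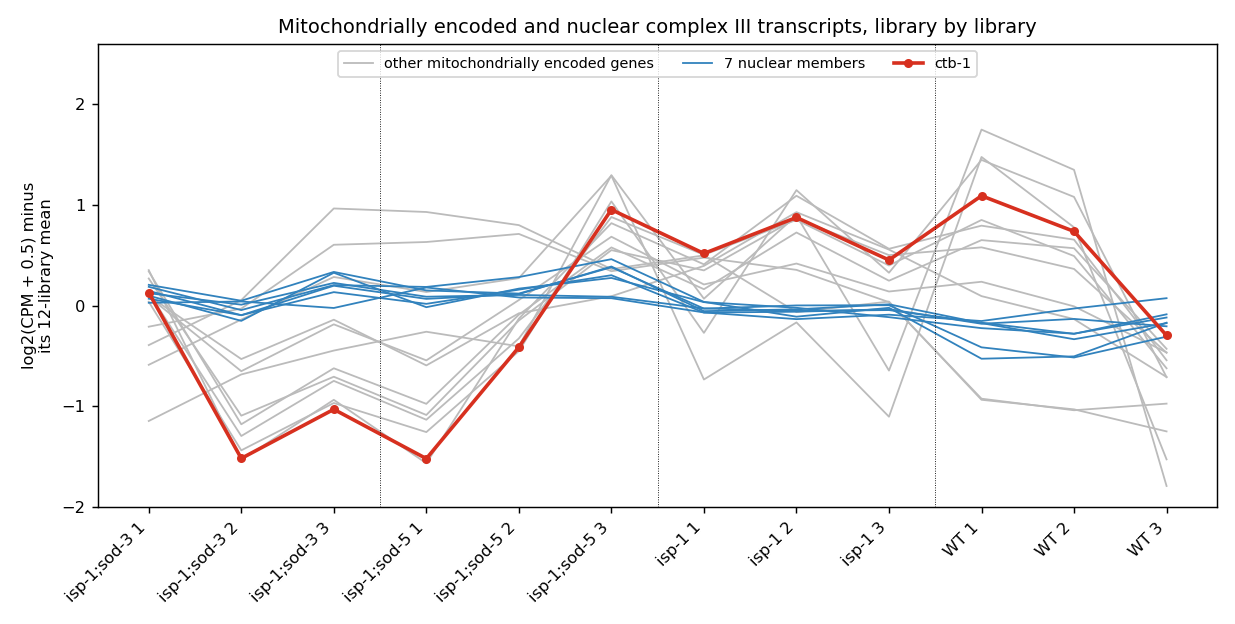
Log2(CPM + 0.5) of each gene minus its own mean over the 12 libraries, by library in the order sod-3 double mutant, sod-5 double mutant, isp-1 and WT, for ctb-1 (red), the 11 other mitochondrially encoded genes (grey) and the 7 nuclear complex III members (blue). The ctb-1 line ranges widely within the sod-5 double mutant and within WT, while the nuclear lines stay close to 0.

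The 5 profiles nearest to that of the isp-1 transcript were those of fum-1 (fumarase), sco-1 (a copper chaperone of complex IV), idhg-1 (a subunit of isocitrate dehydrogenase), idh-1 (another isocitrate dehydrogenase) and cox-5A (a complex IV subunit). Their root-mean-square differences from isp-1 were 0.05 to 0.07 on the log2 scale over the 12 libraries, beside a spread of 0.18 for isp-1 itself. The libraries are shared by all these genes, so the likeness includes what any library does to many transcripts at once.

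Further small subunits, 4 genes listed by resemblance to those of other species and known by sequence names, differed from WT in 1 direction. All 4 had positive log2 differences in each mutant group, with medians of 0.28 in the sod-3 double mutant, 0.46 in the sod-5 double mutant and 0.17 in isp-1. In the sod-5 double mutant all 4 lay wholly above WT, beside 23.7% of all genes. R07E4.3 was at 39.4, 27.3 and 38.7 CPM in the sod-3 double mutant and at 27.6, 40.6 and 37.2 CPM in the sod-5 double mutant, with 34.0, 32.7 and 31.5 CPM in isp-1, against 17.6, 21.4 and 24.1 CPM in WT. Its libraries did not overlap between WT and any mutant group. It rose 1.65-fold in each double mutant and 1.55-fold in isp-1 (adjusted p = 0.0128, 0.00995 and 0.0225, limma), and each call was lost without WT replicate 1. The call in the sod-3 double mutant was also lost without its replicate 1, and that in isp-1 without WT replicate 2 or any isp-1 library (adjusted p of up to 0.0680, 0.0524 and 0.0977 in the order of the folds). F45H10.2 rose in the sod-5 double mutant against WT (log2 0.47, adjusted p = 0.0106), a call lost without WT replicate 1 or 2 (adjusted p of up to 0.0536). T27E9.2 and T02H6.11 passed the test in no comparison. T02H6.11 read 463 CPM in sod-5 double mutant replicate 3, against 215 to 274 CPM in the other 11.

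The bcs-1 gene encodes a chaperone that, in yeast, inserts the Rieske protein. It was at 69.2, 73.1 and 64.4 CPM in the sod-3 double mutant and at 74.3, 75.6 and 67.5 CPM in the sod-5 double mutant, with 65.5, 58.5 and 65.1 CPM in isp-1, against 48.0, 51.2 and 51.7 CPM in WT. All mutant libraries were above the WT libraries. Its rises against WT were log2 0.45, 0.52 and 0.32 in those groups (adjusted p = 0.00478, 0.00155 and 0.0267, limma), and the call in isp-1 was lost in 11 of 27 alternatives, among them TMM, edgeR, DESeq2 and the removal of any WT library or of isp-1 replicate 1 or 3 (adjusted p of up to 0.157). The cytochrome c gene cyc-2.1 averaged 549 CPM in the sod-3 double mutant, 597 CPM in the sod-5 double mutant and 495 CPM in isp-1, against 393 CPM in WT, and rose in the double mutants (log2 0.49 and 0.60, adjusted p = 0.0199 and 0.00497). In the sod-3 double mutant that call was lost without WT 1 or 2 or sod-3 double mutant 1 (adjusted p of up to 0.0935). The second cytochrome c gene, cyc-2.2, averaged 7.78, 6.75 and 6.44 CPM in those mutants against 13.2 CPM in WT and was not called (log2 -0.89, -0.92 and -0.97, adjusted p = 0.0884, 0.0656 and 0.0614). Its libraries lay wholly below WT in the sod-5 double mutant and in isp-1. It was the only one of 4 assembly and cytochrome c genes below WT, and 1 gene of that list was called lower under 3, 10 and 10 of the 27 alternatives in the sod-3 double mutant, the sod-5 double mutant and isp-1, median centring and array weights among them in each.

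Iron-sulphur cluster assembly was represented by 5 genes, nfs-1, iscu-1, frh-1, abtm-1 and nubp-1, not all of which need serve the Rieske protein. In isp-1, iscu-1 (the scaffold protein) rose by log2 0.43 and nfs-1 (the cysteine desulphurase) by 0.29 against WT (adjusted p = 0.0161 and 0.0329, limma), and both also rose in the double mutants. For nfs-1 the rises there were log2 0.38 in the sod-3 and 0.42 in the sod-5 double mutant (adjusted p = 0.00950 and 0.00425), and the call in the sod-3 double mutant was lost with median centring (adjusted p = 0.0549). For iscu-1 the rises there were log2 0.63 in the sod-3 and 0.64 in the sod-5 double mutant (adjusted p = 0.00149 and 0.00118), held under all 27 alternatives. The isp-1 calls were lost in 4 of 27 alternatives for iscu-1 (without WT 1 or 2 or isp-1 1 or 3) and in 9 of 27 for nfs-1, including the removal of any WT or isp-1 library. The frataxin gene frh-1 rose in the sod-5 double mutant (log2 0.65, adjusted p = 0.0214), a call lost without WT 1 or 2 or sod-5 double mutant 2 (adjusted p of up to 0.0781). Neither abtm-1 nor nubp-1 was called against WT. The abtm-1 libraries of the sod-5 double mutant (36.1 to 38.6 CPM) lay wholly below WT (39.1 to 48.1 CPM). Up to 1 gene of this list was called lower in isp-1 under the alternatives. The processing peptidase genes mppa-1 and mppb-1, relatives of the core proteins, were called in no comparison, with log2 differences from WT between -0.07 and 0.16.

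Of 7 genes that maintain or transcribe mitochondrial DNA, polg-1 (DNA polymerase gamma) was called in all 3 mutant groups. It was at 43.6, 48.9 and 44.0 CPM in the sod-3 double mutant and at 47.3, 46.3 and 33.6 CPM in the sod-5 double mutant, with 42.9, 44.4 and 41.7 CPM in isp-1, against 25.6, 25.6 and 29.2 CPM in WT. The lowest mutant library, sod-5 double mutant replicate 3, was still above WT. Its rises were log2 0.75, 0.64 and 0.68 in those groups (adjusted p = 0.00138, 0.00369 and 0.00392) and held under all 27 alternatives. The mitochondrial RNA polymerase gene rpom-1 rose in the sod-3 double mutant (log2 0.39, adjusted p = 0.0294), a call lost in 10 of 27 alternatives, among them the removal of any WT library or of sod-3 double mutant 1 or 2. Both hmg-5, by log2 0.31, and tfbm-1, by 0.48, rose in the sod-5 double mutant (adjusted p = 0.0329 and 0.0126). The hmg-5 call was lost in 13 of 27 alternatives, among them the removal of WT 1 or 3 or sod-5 double mutant 2 or 3, and the tfbm-1 call was lost with median centring and without WT 2. Of the 7 genes 0 were called lower, whereas 1 was with array weights in isp-1.

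Nuclear genes of the other respiratory complexes, subunits and assembly factors listed together, are set beside these values. In isp-1 against WT, 4 of 30 complex I genes, 0 of 5 complex II genes, 1 of 15 complex IV genes and 0 of 10 complex V genes rose, and 0 fell, beside 9.60% of all genes called as higher. The complex IV gene was cox-15, an enzyme of haem synthesis and not a subunit. Their median log2 differences were 0.17, 0.13, 0.17 and 0.06, beside 0.16 for complex III. In the sod-3 double mutant against WT the counts were 9, 1, 3 and 0, with medians of 0.28, 0.25, 0.29 and 0.15, beside 10.4% of all genes called as higher. In the sod-5 double mutant they were 19, 3, 10 and 2, with medians of 0.39, 0.48, 0.46 and 0.30, beside 14.1% of all genes called as higher. Complex III, with a median of 0.34 there, lay within this range. Its medians are over the 8 members and so include the mitochondrially encoded ctb-1 (log2 -0.84 there), whereas the other lists hold nuclear genes only. These counts moved with single libraries and scaling. For complex I they ran from 1 to 7, 3 to 17 and 8 to 20 in isp-1, the sod-3 and the sod-5 double mutant when 1 library was left out, and for complex IV from 0 to 3, 1 to 9 and 3 to 11. Under the other settings they ran from 3 to 19, 4 to 25 and 11 to 22 for complex I and from 0 to 9, 2 to 13 and 5 to 12 for complex IV. The complex II count in the sod-5 double mutant ran from 1 to 4 both without 1 library and under the other settings, and was 1 without any one of the WT or isp-1 libraries or sod-3 double mutant 1. The complex V count there ran from 0 to 4 without 1 library, with 0 without WT 1 or 2, and from 1 to 5 under the other settings.

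Named examples were nduf-9 and gas-1 of complex I and cox-15, which makes the haem of complex IV. Nduf-9 rose in isp-1 by log2 0.41 (adjusted p = 0.00903, limma), a call held under all 27 alternatives. Gas-1 rose by log2 0.58 in the sod-3 double mutant, 0.57 in the sod-5 double mutant and 0.41 in isp-1 (adjusted p = 0.00265, 0.00238 and 0.0198), and the last call was lost without WT 1 or 2 or any isp-1 library. Cox-15 rose by log2 0.61, 0.66 and 0.37 in those groups (adjusted p = 0.000543, 0.000279 and 0.0155), the last lost with median centring and without WT 1 or 2 or isp-1 1 (adjusted p of up to 0.0721).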

How the data were processed

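Whole-worm messenger RNA libraries (stranded kit, per the labels' protocols) were deposited by the authors as CPM for 14326 genes. Build WBcel235, edgeR 3.14.0 in R 3.3.0, featureCounts 1.4.6, Subread 1.5.0, FastQC 0.11.3 and bcl2fastq 2.17.1.14 appear in the submitters' processing notes, without roles. No source used here states how strand was counted. Exons of cyc-1, ucr-2.2 and ucr-2.3 overlap an opposite-strand gene by 61, 13 and 16 bases, and ucr-2 paralogs may share reads. Whole reads were recovered from 100% of values within 0.001 reads. Members had at least 631 reads in every library.

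Names, coordinates and exon lengths came from the Ensembl WBcel235 annotation, which held 14250 identifiers. The name ctb-1, like those of the other mitochondrial genes, was matched by position to RefSeq on the same build. No sequence was used here.

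Genes above 1 CPM in at least 3 of 12 libraries (14013) were tested with limma 3.58.1 (trend, robust) on log2(CPM + 0.5) in R 4.3.3, with all 4 genotypes in 1 fit, two-sided, and Benjamini-Hochberg adjustment at 0.05 within each comparison. Fold changes of low genes are understated on this scale. P-values measure the spread between libraries. Alternatives were filters, pseudocounts, scalings, edgeR 4.0.16, DESeq2 1.42.0, array weights, fits of the compared groups alone, a replicate block and leaving out each library. Also tried, and chosen after seeing the data, were totals without rrn-3.1 and the removal of 2 double mutant libraries that stood apart. Tests were also run on simulated counts that took only mean levels and depths from these libraries, so that check does not bear on the members' calls. No 2 libraries of the same genotype agreed within sampling noise. Same replicate numbers showed no consistent pairing of libraries.

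Genes named are the 8 members, up to 6 of each list per comparison with the smallest adjusted p, small subunits, cytochrome c and mitochondrially encoded genes, and the 5 nearest profiles of isp-1 and ctb-1. The members and lists were chosen with earlier results of these data known.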

Additional observations from a re-analysis of the deposited data

How the results depend on the processing

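Against isp-1, and between the double mutants, 0 members were called under every setting. Over the 1296 recomputed log2 differences of members, 1188 kept direction and side of the threshold, 68 lost a call, 16 gained one and 24 changed sign. Members called in isp-1 against WT were 1 with median centring (ucr-11 being lost) and 5 with array weights, and 0 to 2 without 1 library. In the sod-3 double mutant against WT they were 6 with array weights and 6 without both extreme libraries (1 to 5 without 1 library). They fell to 2, ucr-2.1 and ucr-11, with TMM, median-ratio factors, median centring, edgeR or the 2 groups alone. In the sod-5 double mutant against WT they were 3 with TMM, median-ratio factors, median centring, edgeR or the 2 groups alone (2 to 6 without 1 library).

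Genes called in isp-1 against WT were 1815 with the filter on all 12 libraries, 7284 with array weights, 5702 with the 2 groups alone and 4490 without both extreme libraries (1088 to 3581 without 1 library), against 2798. In the sod-3 double mutant against isp-1 they were 101 with that filter, 323 with DESeq2, 1209 with array weights and 479 without both extreme libraries (89 to 228), against 152. In the sod-5 double mutant against isp-1 they were 334 with DESeq2, 286 with array weights and 304 without both extreme libraries (89 to 261), against 169. Against WT they were 7455 with array weights in the sod-3 double mutant (1211 to 3525), against 2379, and 1865 to 4162 without 1 library in the sod-5 double mutant, against 3402. Between the double mutants they were 7 with the filter on all 12, 28 with DESeq2, 25 with array weights and 2 with the 2 groups alone (10 to 18), against 15.

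Signs changed in differences that were not called. In the sod-3 minus the sod-5 double mutant, ucr-2.1 (-0.02) became 0.046 with TMM, 0.048 with edgeR, 0.018 with median-ratio factors, 0.0096 with median centring, 0.016 with DESeq2, 0.044 with array weights and 0.14 without both extreme libraries. There ucr-2.2 (-0.05) became 0.016 with TMM, 0.028 with edgeR and 0.14 without both, ctb-1 (-0.48) became 0.46 with array weights and 0.52 without both, and isp-1 and cyc-1 became 0.043 and 0.052 without both. Without 1 library the ranges were -0.090 to 0.061 for ucr-2.1, -0.17 to 0.070 for ucr-2.2, -1.08 to 0.16 for ctb-1 and -0.028 to 0.080 for ucr-1. In isp-1 against WT ctb-1 became -0.11 with array weights (-0.30 to 0.40 without 1 library), and in the sod-3 double mutant against WT ucr-2.3 ran from -0.0073 to 0.11. The cause of these changes was not tested.

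The replicate numbers showed no consistent pairing of the libraries, since 5 of 18 same-number pairs had a correlation of deviations above 0.1 (range -0.55 to 0.33). Some pairs with unlike numbers were more alike, with correlations of 0.55 for isp-1 replicate 2 and sod-3 double mutant replicate 3. For sod-3 double mutant replicate 2 and sod-5 double mutant replicate 1 the correlation was 0.50. The cause was not tested. With a replicate block 5 members were called in the sod-5 double mutant against WT, ucr-2.2 being lost (adjusted p = 0.0575), and 2182 genes in isp-1 against WT. The 28.5-fold range of depth limits low genes more than the members.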
